A study of Mus musculus with 71 samples.

Results

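The neurexins, neuroligins and LRRTMs are cell-adhesion proteins that join the 2 sides of a synapse. The 9 genes described here are Nrxn2, Nrxn3, Nlgn1, Nlgn2, Nlgn3, Lrrtm1, Lrrtm2, Lrrtm3 and Lrrtm4, chosen by gene symbol out of 37681 genes in the deposited tables. All 9 were found in each of the 6 tables and passed the filter on low values in every comparison. RNA-seq was measured in 71 libraries of micro-punched nucleus accumbens (NAc), ventral tegmental area (VTA) and prefrontal cortex (PFC). The mice were wild-type adults of both sexes, 8 weeks old, of strain C57BL/6 in the labels (C57BL/6J in the study's methods). All were first trained to respond for food and fitted with a jugular catheter, and then self-administered cocaine at 0.7 mg/kg per infusion or saline in 21 daily sessions of 2 h. They were killed after 1 or 28 days of abstinence, which gives 12 groups of 6 libraries, apart from the saline VTA group at 28 days with 5. Nothing in the labels shows which libraries of different regions came from 1 mouse, so p-values measure the spread between these libraries.

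Neurexins sit in the presynaptic membrane and reach across the cleft to neuroligins, LRRTMs and secreted cerebellins. Neuroligins are their postsynaptic partners, of which neuroligin 1 is known mainly from excitatory synapses, neuroligin 2 from inhibitory synapses and neuroligin 3 from both. LRRTMs are postsynaptic leucine-rich repeat proteins that bind neurexins and hold AMPA receptors at excitatory synapses. In the NAc most neurons are GABAergic medium spiny neurons, the VTA holds the dopamine neurons that project to them, and the PFC sends them glutamatergic input.

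Each library held between 20971967 and 49700932 reads on genes, and the members were well covered, from at least 272 reads for Lrrtm1 to 19300 reads for Nrxn2. Levels are given as RPKM, reads per kilobase of transcript, scaled to library size, so that gene length does not enter when genes are compared. The order of the members by RPKM differed between the 2 times, as given below. Levels of different genes are therefore compared within 1 time only. Each region carried its own markers. The 8 medium spiny neuron genes (such as Drd2 and Ppp1r1b) summed to between 1559 and 3644 RPKM in the NAc and to at most 178 RPKM in the other regions, except for saline PFC library 4 at 28 days, with 1299 RPKM. That library stands apart from its group. Without it the 18 differences of the members from the PFC in saline mice moved by at most 0.13 on the log2 scale and 0 calls changed, and the values without it are given below for the members in which it was the highest or lowest PFC library (Lrrtm1, Lrrtm2, Lrrtm3, Nrxn2 and Nrxn3). The 8 dopamine neuron genes (such as Th and Slc6a3) summed to between 423 and 2036 RPKM in the VTA, and Pitx3, Foxa1, Foxa2 and En1 were at or near 0 in the NAc and PFC. NAc punches also carried cortical excitatory genes (such as Slc17a7 and Neurod6) at very unequal levels, from 3.11 to 285 RPKM.

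The first question was where each member is expressed, and was asked in the saline libraries at 28 days, which are all raw counts. Log2 differences are given as the first region named minus the second, so a negative value means a lower level in the first. In tissue punches, fewer cells of a type and less RNA per cell cannot be told apart. Of the 9 members, 7 differed between NAc and VTA, 6 between NAc and PFC and 8 between VTA and PFC in edgeR's quasi-likelihood test at an adjusted p under 0.05. The background was high: 62.5%, 40.7% and 57.8% of the 17181 genes tested passed the same threshold in these comparisons, so the counts alone do not set the members apart. The direction was mostly one way, with 6 of the 7 higher in NAc than VTA, and all 8 lower in VTA than PFC. Over all genes the median log2 difference was -0.03 between NAc and VTA and 0.02 between VTA and PFC, against 0.50 and -0.63 over the members.

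**Figure D1:**
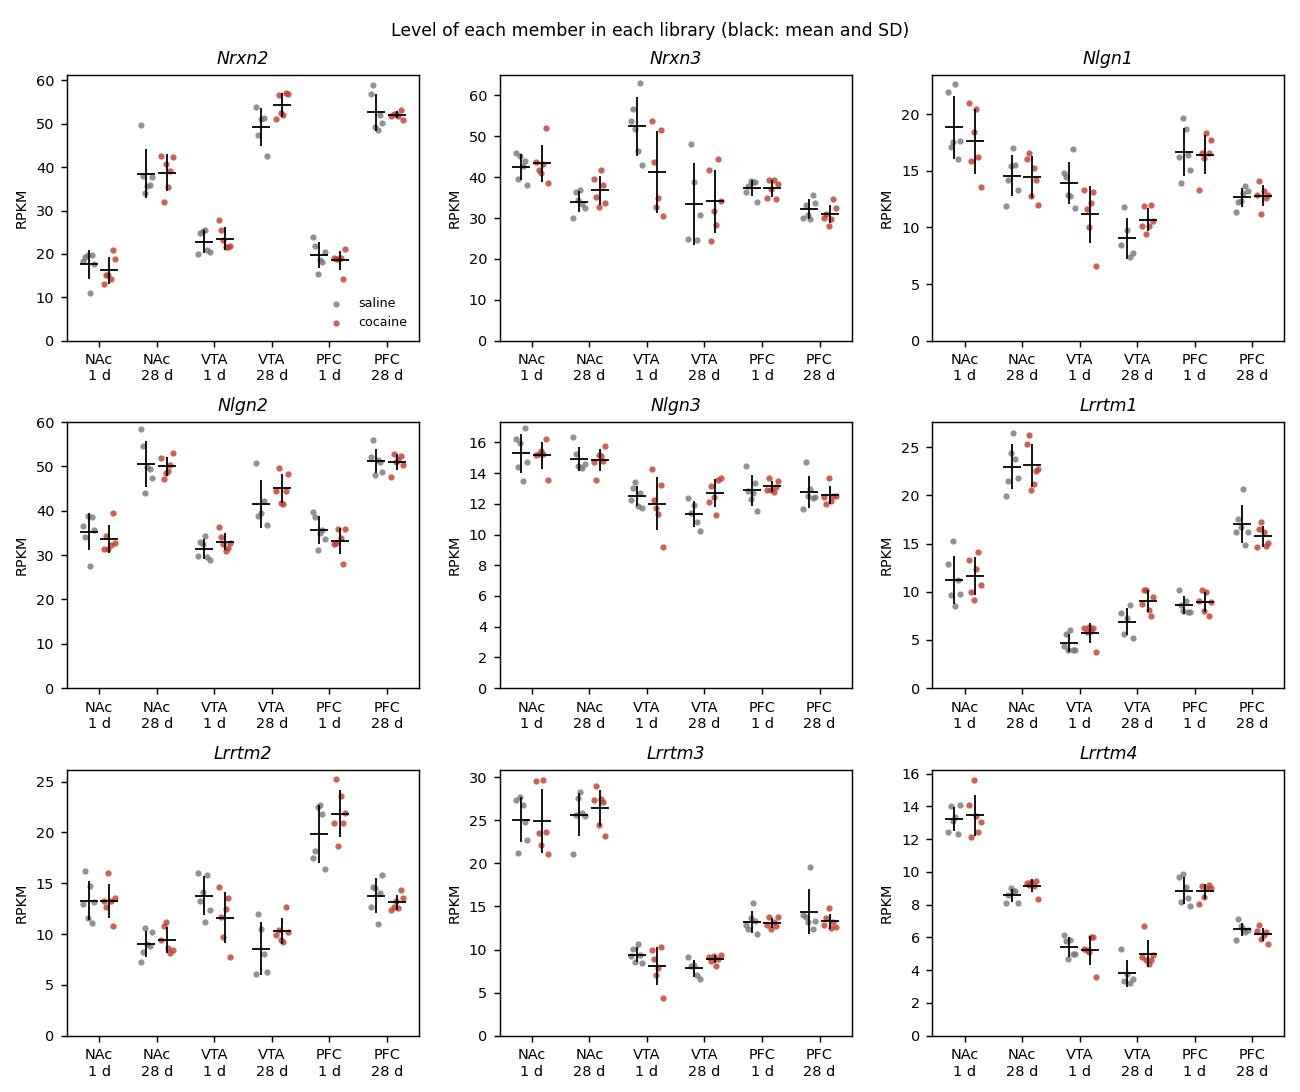
RPKM of each member (y axes, linear from 0) in every library, by region and days of abstinence (x axes). Grey points are saline and red points cocaine libraries, with the group mean and SD in black. Lrrtm1, Lrrtm3 and Lrrtm4 were lowest in the VTA at both times, Nrxn2 and Nlgn2 sat higher at 28 days than at 1 day, and within each region and time the saline and cocaine points overlapped.

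The LRRTMs showed the widest regional differences. Lrrtm1 (ENSMUSG00000060780, mm9 chromosome 6, 77192683 to 77207785, plus strand) lies inside an intron of Ctnna2, an alpha-catenin gene on the opposite strand. Lrrtm3 (ENSMUSG00000042846, mm9 chromosome 10, 63391220 to 63553025, minus strand) lies in the same way inside Ctnna3, and Lrrtm2 (ENSMUSG00000071862) inside Ctnna1. Lrrtm4 (ENSMUSG00000052581) spans mm9 chromosome 6 from 79968871 to 80760137 on the plus strand. The promoters of the members that differed together between regions are shown with that of Nrxn3 which held the one AP-1 match, as RefSeq places them in GRCm38.p6, each from 250 bases before to 50 bases after the start of transcription, 5′ to 3′ on the gene's strand. Coordinates of that build do not line up with the mm9 positions above. Capitals mark matches on either strand to the motifs searched. The E-box was searched as CAGCTG. The AP-1 site was searched as TGANTCA. The TATA box was searched as TATAAA.
Lrrtm1, chr6:77242227-77242526, plus strand: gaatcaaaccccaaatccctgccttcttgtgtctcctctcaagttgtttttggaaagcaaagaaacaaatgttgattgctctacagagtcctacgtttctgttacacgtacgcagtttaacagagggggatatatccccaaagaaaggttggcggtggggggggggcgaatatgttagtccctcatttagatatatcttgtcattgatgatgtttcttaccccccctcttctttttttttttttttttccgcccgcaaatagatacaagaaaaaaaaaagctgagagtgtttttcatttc
Lrrtm3, chr10:64090206-64090505, minus strand: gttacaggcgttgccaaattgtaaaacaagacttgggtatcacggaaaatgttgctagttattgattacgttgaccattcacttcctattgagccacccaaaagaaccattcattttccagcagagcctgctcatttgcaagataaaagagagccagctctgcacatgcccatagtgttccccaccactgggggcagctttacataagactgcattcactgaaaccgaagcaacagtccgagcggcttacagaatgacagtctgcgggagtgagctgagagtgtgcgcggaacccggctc
Lrrtm4, chr6:80018627-80018926, plus strand: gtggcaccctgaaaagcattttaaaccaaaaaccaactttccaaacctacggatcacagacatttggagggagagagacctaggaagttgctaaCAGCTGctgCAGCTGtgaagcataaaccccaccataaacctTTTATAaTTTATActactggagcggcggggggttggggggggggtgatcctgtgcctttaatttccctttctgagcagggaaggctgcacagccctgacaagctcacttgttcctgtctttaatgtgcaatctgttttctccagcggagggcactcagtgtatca
Nrxn3, chr12:88953140-88953439, plus strand: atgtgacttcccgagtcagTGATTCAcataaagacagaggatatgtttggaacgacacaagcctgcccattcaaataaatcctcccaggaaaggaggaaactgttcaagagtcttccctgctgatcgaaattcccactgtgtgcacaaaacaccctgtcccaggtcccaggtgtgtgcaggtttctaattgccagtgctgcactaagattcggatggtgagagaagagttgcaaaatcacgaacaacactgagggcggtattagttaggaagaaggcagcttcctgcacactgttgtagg

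The 10 such windows used cover 6 of the 9 members. For the members, windows on chromosome 18, which holds Lrrtm2, were left out. The Lrrtm4 window held a pair of E-boxes 3 bases apart and a pair of TATA box matches on the minus strand, whereas the Lrrtm1 and Lrrtm3 windows held no match to any of the 5 motifs searched. E-boxes stood in 3 of the 10 windows, both windows of Lrrtm4 and that of Nlgn2, against 16.3% of all 32851 mouse windows of this length. The AP-1 letters stood in 1 of 10 against 7.81% of all, and the TATA letters in 1 of 10 against 13.6%. The CRE motif, searched as TGACGTCA, stood in 1.79% of all windows, and the NBRE motif, searched as AAAGGTCA, in 1.51%, and neither was in any of the 10. A match describes the letters in the window and not a bound site. Lrrtm1 had 40.7% and Lrrtm3 and Lrrtm4 each 48.7% of G and C bases there, against a median of 52.7% over all windows.

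In saline libraries at 28 days Lrrtm1 reached 19.98, 22.8 and 26.5 RPKM (lowest, median and highest) in the NAc and 14.8, 16.4 and 20.6 RPKM in the PFC. In the VTA the 5 libraries gave 7.78, 5.59, 7.32, 8.60 and 5.25 RPKM. All VTA libraries were below all others, whereas the NAc and PFC overlapped in a single PFC library, library 4 at 20.6 RPKM. The log2 difference was 1.85 ± 0.13 (SE) between NAc and VTA (adjusted p = 8.6e-10), -1.45 ± 0.12 between VTA and PFC (adjusted p = 1.8e-08) and 0.40 ± 0.11 between NAc and PFC (adjusted p = 0.0087). Without PFC library 4 the differences from the PFC were 0.48 for the NAc (adjusted p = 0.0025) and -1.39 for the VTA.

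Lrrtm3 gave 21.1, 25.7 and 28.3 RPKM in the NAc and 12.4, 13.5 and 19.6 RPKM in the PFC. The VTA libraries gave 9.11, 8.12, 8.18, 7.07 and 6.54 RPKM. The 3 regions did not overlap, even with PFC library 4 as the highest of the PFC. NAc exceeded VTA by 1.83 ± 0.12 on the log2 scale (adjusted p = 8.9e-10) and PFC by 0.80 ± 0.11 (adjusted p = 2.0e-05), and VTA was below PFC at -1.03 ± 0.12 (adjusted p = 1.0e-06). Without PFC library 4 the differences from the PFC were 0.93 for the NAc and -0.93 for the VTA.

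Lrrtm4 had the lowest level of the family, with 8.09, 8.71 and 9.03 RPKM in the NAc and 5.82, 6.48 and 7.10 RPKM in the PFC. In the VTA it gave 5.26, 3.33, 3.77, 3.25 and 3.46 RPKM. Library 1 was the highest of the VTA but still below the lowest PFC library. The log2 difference was 1.28 ± 0.11 between NAc and VTA (adjusted p = 1.1e-08), 0.37 ± 0.10 between NAc and PFC (adjusted p = 0.0059) and -0.92 ± 0.11 between VTA and PFC (adjusted p = 7.5e-07). Its exons share 1543 bases with Gm4409 on the opposite strand, and the strand used in counting is not stated, so part of its reads could belong to that gene.

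Lrrtm2 ran in another order. It gave 7.27, 8.88 and 10.6 RPKM in the NAc and 11.0, 14.3 and 15.8 RPKM in the PFC, and 6.07, 11.9, 10.5, 8.00 and 6.30 RPKM in the VTA. NAc and PFC libraries did not overlap, while the VTA libraries overlapped both. NAc was below PFC at -0.64 ± 0.16 (adjusted p = 0.0031) and VTA below PFC at -0.83 ± 0.17 (adjusted p = 0.00036), and the difference between NAc and VTA, 0.19 with a 95% interval from -0.16 to 0.53, did not pass. The lowest PFC library was again library 4, at 11.0 RPKM, without which the differences from the PFC were -0.68 for the NAc and -0.90 for the VTA.

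Among the neuroligins, Nlgn1 (ENSMUSG00000063887, mm9 chromosome 3, 25330733 to 26032656, minus strand) gave 11.9, 14.8 and 17.0 RPKM in the NAc, 11.4, 12.7 and 13.7 RPKM in the PFC and 8.43, 11.9, 9.77, 7.40 and 7.71 RPKM in the VTA. NAc and VTA did not overlap, with 0.80 ± 0.12 between them (adjusted p = 2.2e-05), and VTA was below PFC at -0.63 ± 0.12 (adjusted p = 0.00028) with an overlap at VTA library 2. NAc and PFC differed by 0.17 with a 95% interval from -0.08 to 0.41. Nlgn2 (ENSMUSG00000051790, mm9 chromosome 11, 69636624 to 69651286, minus strand), the inhibitory-synapse neuroligin, was the most abundant of the 3 in each region, with 44.0, 49.6 and 58.5 RPKM in the NAc and 48.0, 51.2 and 55.9 RPKM in the PFC. Its VTA libraries gave 50.7, 38.8, 39.5, 42.1 and 36.9 RPKM and overlapped both other regions through library 1 only. It was higher in NAc than VTA by 0.39 ± 0.08 (adjusted p = 0.00023) and lower in VTA than PFC at -0.45 ± 0.08 (adjusted p = 6.2e-05).

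Nlgn3 (ENSMUSG00000031302, mm9 chromosome X, 98491178 to 98521302, plus strand) spread little within a region. It gave 14.4, 14.5 and 16.3 RPKM in the NAc, 11.7, 12.5 and 14.8 RPKM in the PFC and 12.4, 11.4, 11.9, 10.8 and 10.2 RPKM in the VTA. The NAc was above every VTA library, by 0.50 ± 0.06 (adjusted p = 2.5e-06), and VTA was below PFC at -0.32 ± 0.06 (adjusted p = 0.00033). The difference from the PFC, 0.18 ± 0.06 (adjusted p = 0.025), was lost without PFC library 6 (0.17, adjusted p = 0.052). Its exons share 749 bases with Med12, a Mediator subunit gene on the same strand, so reads there are uncertain.

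Of the presynaptic genes, Nrxn2 went against the other called members in NAc against VTA but with them in VTA against PFC. In NAc against PFC it was lower, as was Lrrtm2. Nrxn2 (ENSMUSG00000033768, mm9 chromosome 19, 6418731 to 6544169, plus strand) gave 34.1, 36.8 and 49.7 RPKM in the NAc and 48.7, 51.1 and 59.0 RPKM in the PFC. The VTA libraries gave 53.9, 47.3, 51.1, 51.3 and 42.5 RPKM. Except for library 1, the NAc libraries were below all of the VTA and PFC. NAc was below VTA at -0.25 ± 0.08 (adjusted p = 0.013) and below PFC at -0.50 ± 0.08 (adjusted p = 5.9e-05), and VTA was below PFC at -0.25 ± 0.08 (adjusted p = 0.016). The NAc against VTA call was lost without NAc library 3, 4 or 5 (-0.20 to -0.21, adjusted p from 0.052 to 0.061), and the VTA against PFC call without VTA library 5 (-0.19, adjusted p = 0.063). Without PFC library 4, the lowest of the PFC, the differences from the PFC were -0.50 for the NAc and -0.27 for the VTA. Opposite-strand genes share 669 (Slc22a12), 207 (Gm14964) and 129 (Gm14967) exon bases with it.

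Nrxn3 (ENSMUSG00000066392, mm9 chromosome 12, 89961320 to 91573375, plus strand) differed between no pair of regions. It gave 30.0, 34.0 and 36.9 RPKM in the NAc, 29.8, 32.0 and 35.7 RPKM in the PFC and 24.9, 48.2, 38.9, 24.7 and 30.6 RPKM in the VTA. The VTA libraries spread from below to above all others. The log2 differences were 0.13 (95% interval from -0.18 to 0.43) between NAc and VTA, 0.04 (from -0.25 to 0.33) between NAc and PFC and -0.09 (from -0.39 to 0.22) between VTA and PFC. Without VTA library 2, which gave 48.2 RPKM, the NAc was higher by 0.31 (adjusted p = 0.033). Without PFC library 4 the differences from the PFC were 0.04 for the NAc and -0.12 for the VTA.

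**Figure D2:**
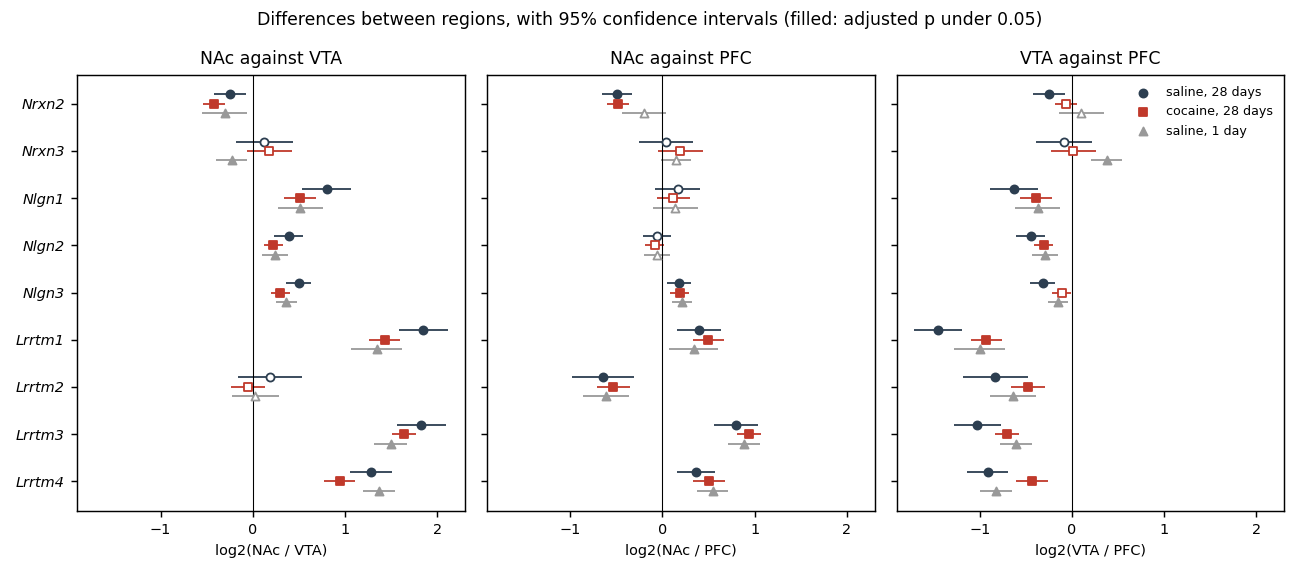
Log2 difference between each pair of regions (x axes) for each member, with 95% confidence intervals, from saline libraries at 28 days (dark circles), cocaine libraries at 28 days (red squares) and saline libraries at 1 day (grey triangles). Filled symbols passed an adjusted p of 0.05, and Lrrtm1, Lrrtm3 and Lrrtm4 lay right of 0 against the VTA and left of 0 in VTA against PFC in all 3 sets.

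The members were also counted by overlap. The NAc and VTA libraries did not overlap for 5 members (Nlgn1, Nlgn3, Lrrtm1, Lrrtm3 and Lrrtm4), with 40.2% of all genes in that class. NAc and PFC did not overlap for 3 members (Lrrtm2, Lrrtm3 and Lrrtm4) with 28.3% of all genes, and VTA and PFC for 3 (Lrrtm1, Lrrtm3 and Lrrtm4) with 37.4%. At a log2 difference of at least 1, Lrrtm1, Lrrtm3 and Lrrtm4 remained in NAc against VTA and Lrrtm1 and Lrrtm3 in VTA against PFC, Lrrtm3 only with PFC library 4 (-0.93 without it).

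The same contrasts were fitted in libraries not used above. In the cocaine libraries at 28 days 7, 6 and 6 members passed in NAc against VTA, NAc against PFC and VTA against PFC. In the saline libraries at 1 day 8, 5 and 8 passed. Of the 16948 genes tested in the cocaine set, 11605, 9050 and 10999 passed in the same order. Of the 16430 tested in the 1-day saline set, 10839, 6713 and 10611 passed, so the counts alone do not set the members apart. Lrrtm1 was higher in NAc than VTA by 1.43 ± 0.08 and 1.34 ± 0.13, Lrrtm3 by 1.64 ± 0.06 and 1.49 ± 0.08, and Lrrtm4 by 0.94 ± 0.08 and 1.37 ± 0.08 in these sets. Members that lay on the other side of 0 in these sets were Nrxn2, Nrxn3 and Lrrtm2. In the 1-day saline libraries Nrxn2, called lower in VTA than PFC above, was at 0.10 ± 0.11 (adjusted p = 0.45). In the 28-day cocaine libraries Lrrtm2, not called above, was at -0.05 ± 0.09 in NAc against VTA. For Nrxn3, in the 1-day saline libraries the level was higher in the VTA, at -0.23 ± 0.08 for NAc against VTA (adjusted p = 0.016) and by 0.38 ± 0.08 for VTA against PFC (adjusted p = 0.00038). The 1-day VTA and PFC values in this fit are reads recovered from RPKM.

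The gene with the largest share of its family differed between regions for the LRRTMs alone, while Nrxn2 and Nlgn2 led theirs in each region at 28 days. The 4 LRRTMs summed to 66.3 ± 5.89 RPKM (SD, n = 6) in the NAc, 27.1 ± 3.26 RPKM (n = 5) in the VTA and 51.6 ± 3.56 RPKM (n = 6) in the PFC of saline mice at 28 days. Lrrtm3 held 38.7% ± 0.852 of that sum in the NAc, 28.9% ± 2.41 in the VTA and 27.7% ± 3.28 in the PFC, whereas Lrrtm2 held 13.6% ± 1.29 in the NAc, 31.4% ± 7.35 in the VTA and 26.8% ± 4.16 in the PFC. Lrrtm1 held 34.7% ± 1.26, 25.6% ± 4.65 and 32.9% ± 1.67 in the same order, and Lrrtm4 between 12.6% and 14.2% in each region. In the VTA the shares of Lrrtm2, Lrrtm3 and Lrrtm1 lay within their spread of each other, so no leader stood out there. At 1 day Lrrtm1 held 17.8% ± 3.24 and Lrrtm3 39.9% ± 2.93 in the NAc, and Lrrtm2 led in the VTA (41.5% ± 5.05) and PFC (39.2% ± 2.88). The neurexin sum at 1 day was led by Nrxn3, with 70.9% ± 4.56, 69.5% ± 3.84 and 65.6% ± 4.30 in NAc, VTA and PFC. The neuroligin makeup was steadier, with Nlgn2 at 63.1% ± 2.79, 67.0% ± 3.49 and 66.8% ± 1.38 in NAc, VTA and PFC at 28 days.

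**Figure D3:**
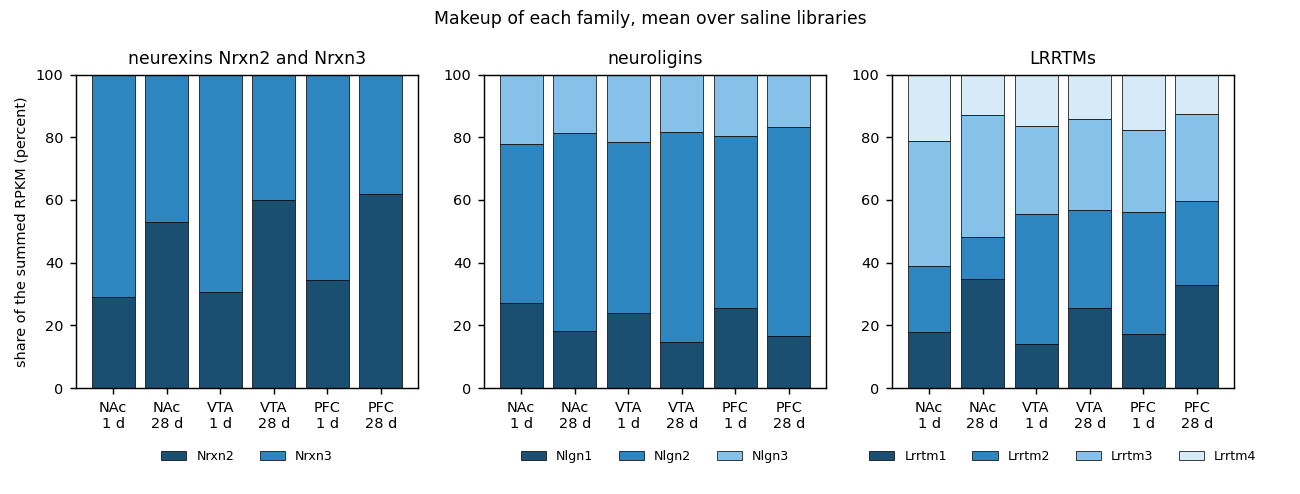
Share of each member in the summed RPKM of its family (y axes, percent), as the mean over the saline libraries of each region and time (x axes). Nlgn2 made up most of the neuroligin sum throughout, while Lrrtm3 led the LRRTMs in the NAc at both times and Lrrtm2 had its smallest share there at 28 days.

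In order of level, at 28 days Nlgn2, Nrxn2 and Nrxn3 took the first 3 places in every region and Lrrtm4 the last. Nrxn2 led in the VTA (49.2 ± 4.44 RPKM) and the PFC (52.7 ± 4.28 RPKM) and Nlgn2 in the NAc (50.6 ± 5.14 RPKM). The lead of Nrxn2 over Nlgn2 in the PFC (51.2 ± 2.78 RPKM) was smaller than the spread between libraries. So were the steps in the NAc from Nlgn3 (14.9 ± 0.774 RPKM) to Nlgn1 (14.6 ± 1.82 RPKM) and from Lrrtm2 (9.03 ± 1.25 RPKM) to Lrrtm4 (8.58 ± 0.405 RPKM), and in the VTA the steps from Nlgn1 (9.03 ± 1.82 RPKM) through Lrrtm2 (8.56 ± 2.58 RPKM) and Lrrtm3 (7.81 ± 1.01 RPKM) to Lrrtm1 (6.91 ± 1.44 RPKM). The order was another one in the saline libraries at 1 day. Nrxn3 came first there, at 42.5, 52.5 and 37.4 RPKM in the NAc, VTA and PFC. Lrrtm1 was last in each region then, by less than the spread between libraries, and Nrxn2 ranked 5, 3 and 4 in the same order.

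The second question was whether cocaine changed the members at either time. None of the 9 members passed an adjusted p of 0.05 in any of the 6 comparisons of cocaine with saline, in the edgeR fits of the NAc (1 and 28 days), VTA (28 days) and PFC (28 days) or the limma fits of the VTA and PFC at 1 day. DESeq2 on the counts and edgeR on the reads recovered from RPKM also called 0 members. Few genes passed at all: 0.0126% of those tested in the NAc at 1 day, 0% at 28 days, 0.0665% in the VTA at 1 day, 0% at 28 days, 0.00693% in the PFC at 1 day and 0% at 28 days. The VTA share at 1 day, 10 genes, ran from 0 to 65 genes on leaving out 1 library, with 65 without cocaine library 6. At an unadjusted p under 0.05 the members numbered 0 in the NAc at both times, 2 in the VTA at 1 day, 2 in the VTA at 28 days and 0 in the PFC at both times. Over all genes the share at that unadjusted level was 15.7% in the VTA at 1 day and 11.5% at 28 days, and between 3.78% and 6.76% in the other 4 comparisons. Cocaine and saline libraries overlapped for each of the 9 members in each comparison, whereas of all genes 0.214% (NAc, 1 day), 0.301% (NAc, 28 days), 1.67% (VTA, 1 day), 1.33% (VTA, 28 days), 0.159% (PFC, 1 day) and 0.233% (PFC, 28 days) did not overlap.

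**Figure D4:**
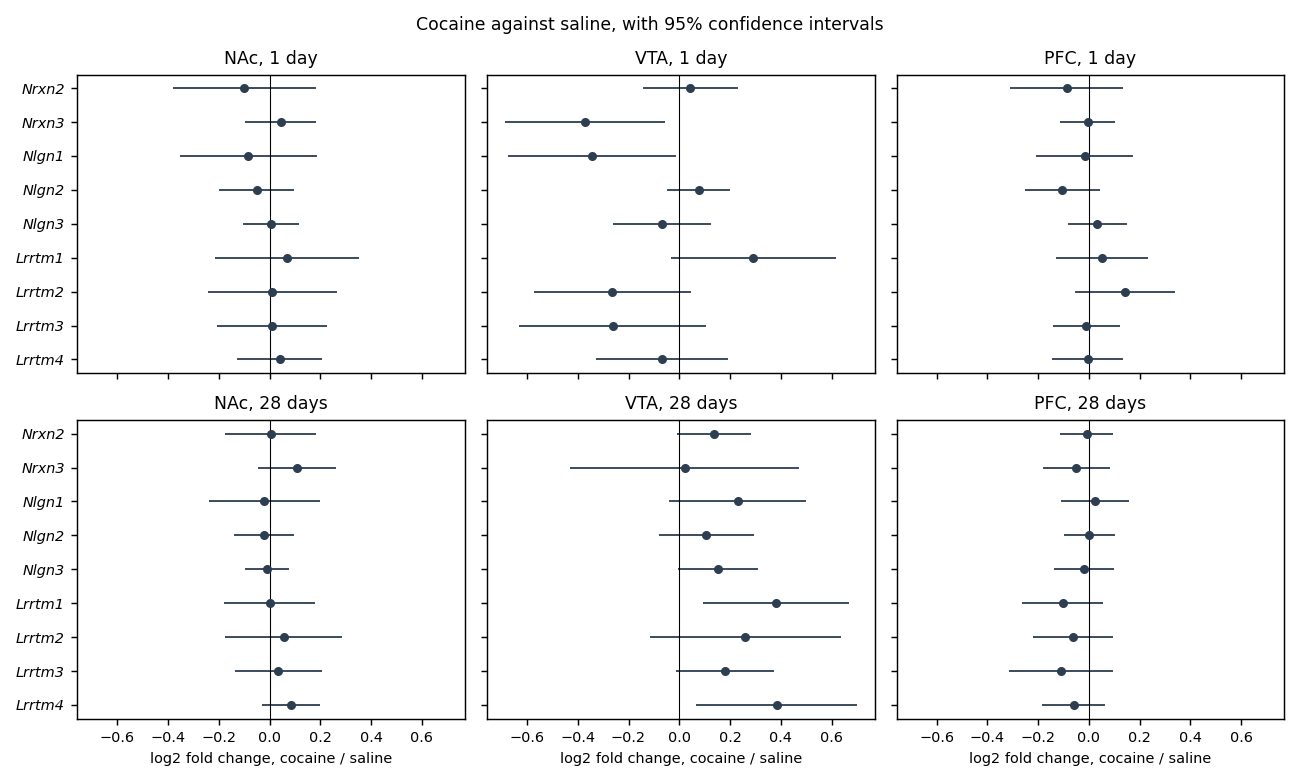
Log2 fold change of cocaine over saline (x axes) for each member in the 6 comparisons, with 95% confidence intervals. The intervals in the NAc and PFC stayed between -0.38 and 0.35, those in the VTA were wider, and in the VTA at 28 days all 9 estimates lay right of 0.

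In the NAc the members sat close to their saline levels. At 1 day Nrxn2, a presynaptic organizer, gave 13.1, 15.1 and 20.96 RPKM after cocaine and 10.9, 18.8 and 19.7 RPKM after saline, a log2 difference of -0.10 ± 0.13. Nlgn1 gave 13.6, 17.3 and 21.01 RPKM against 16.1, 17.6 and 22.7 RPKM (-0.08 ± 0.13), and Lrrtm1 9.16, 11.5 and 14.2 RPKM against 8.56, 10.5 and 15.3 RPKM (0.07 ± 0.13). The groups overlapped over most of their range. The 9 estimates ran from -0.10 to 0.07 and their 95% intervals from -0.38 to 0.35.

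At 28 days in the NAc Nrxn3 gave 32.8, 36.7 and 41.7 RPKM after cocaine and 30.0, 34.0 and 36.9 RPKM after saline, the largest estimate of the 9 there at 0.11 ± 0.07 (edgeR adjusted p = 0.82). Lrrtm4 gave 8.37, 9.26 and 9.47 RPKM against 8.09, 8.71 and 9.03 RPKM (0.08 ± 0.05). Both groups overlapped, and cocaine library 6 alone held the low end of Lrrtm4. The 9 estimates ran from -0.02 to 0.11, with 95% intervals from -0.24 to 0.29, so that at this depth and spread a change beyond those limits was not seen. The difference between the 28-day and 1-day effects, fitted over the 24 NAc libraries, passed for 0 of 9 members (0 at an unadjusted p under 0.05, 0 by DESeq2) and for 0.0181% of all genes.

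The PFC gave the same picture. At 1 day Lrrtm2, an AMPA-receptor organizer, had 18.6, 21.4 and 25.2 RPKM after cocaine and 16.4, 19.97 and 22.7 RPKM after saline (0.14 ± 0.09), and Nlgn2 28.1, 33.3 and 35.9 RPKM against 31.1, 35.3 and 39.7 RPKM (-0.10 ± 0.07). At 28 days Lrrtm3 had 12.4, 13.0 and 14.9 RPKM against 12.4, 13.5 and 19.6 RPKM, and its estimate of -0.11 ± 0.10 became 0.00 without saline library 4, which held the 19.6 RPKM. Lrrtm1 had 14.6, 15.6 and 17.3 RPKM against 14.8, 16.4 and 20.6 RPKM (-0.10 ± 0.07), the highest again in that library, and -0.04 without it. Lrrtm2 was at -0.06, or -0.12 without it. The 95% intervals ran from -0.31 to 0.34 at 1 day and from -0.32 to 0.16 at 28 days.

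In the VTA at 1 day the estimates spread further from 0, from -0.37 to 0.29. Nrxn3 gave 53.8, 43.6, 32.7, 34.8, 51.7 and 30.6 RPKM in the 6 cocaine libraries and 53.7, 56.6, 51.9, 46.5, 63.1 and 43.0 RPKM in the 6 saline libraries. Cocaine libraries 3, 4 and 6 were below all saline libraries, and the others lay among them. The log2 difference was -0.37 ± 0.15 (unadjusted p = 0.024, limma adjusted p = 0.26). Nlgn1 gave 13.3, 11.6, 10.1, 12.1, 13.1 and 6.63 RPKM after cocaine and 14.8, 14.5, 12.8, 12.8, 16.9 and 11.7 RPKM after saline. Library 6 was far below the rest of the cocaine group. The difference of -0.34 ± 0.15 (unadjusted p = 0.043, adjusted p = 0.30) was -0.20 without that library.

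Cocaine library 6 of the VTA at 1 day held the lowest level of its group for 7 of the 9 members, all but Nrxn2 and Nlgn2. Lrrtm1 was the one LRRTM with a positive estimate, at 6.23, 5.80, 6.33, 5.90, 6.29 and 3.70 RPKM after cocaine and 4.36, 5.61, 3.97, 6.05, 3.94 and 3.93 RPKM after saline. Cocaine libraries 1, 3 and 5 lay above all saline libraries and library 6 below them. The difference was 0.29 ± 0.15 (limma adjusted p = 0.37). On leaving out 1 library it ran from 0.25 to 0.41 (limma adjusted p from 0.12 to 0.55). Lrrtm2 and Lrrtm3 had estimates of -0.26 ± 0.14 and -0.26 ± 0.17, which were -0.15 and -0.10 without cocaine library 6. Nrxn2, Nlgn2, Nlgn3 and Lrrtm4 lay between -0.07 and 0.08. The median over the members was -0.07 against 0.03 over all genes.

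Markers of other cells moved with the VTA groups at 1 day. The 6 cortical excitatory genes summed to 6.46, 21.2 and 77.4 RPKM in the cocaine libraries and 2.00, 4.60 and 31.5 RPKM in the saline libraries, highest in cocaine libraries 6 and 3, and Emx1 was near 0 in both groups. The 7 dopamine neuron genes tested were all lower after cocaine (median log2 difference -0.56), with sums of 423 to 1032 RPKM against 664 to 1694 RPKM, and the 5 microglial genes as well (median -0.45, 60.8 to 102 RPKM against 94.7 to 143 RPKM). No marker gene passed. A covariate fit used the mean of log2(RPKM + 0.1) over the 6 cortical genes, not their sum. The estimate in it was -0.14 for Nrxn3, -0.07 for Nlgn1 and 0.58 for Lrrtm1 (limma adjusted p = 0.90, 0.96 and 0.30). The sum of the cortical genes was mostly higher after cocaine, so in this fit they and the treatment cannot be fully told apart. The part of the dopamine neuron and microglial genes in these values was not tested.

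In the VTA at 28 days all 9 estimates were positive, from 0.02 to 0.38, with a median of 0.18 against -0.03 over all genes, of which 43.1% were positive. Lrrtm1 gave 8.73, 10.2, 10.2, 8.14, 7.51 and 9.50 RPKM after cocaine against 7.78, 5.59, 7.32, 8.60 and 5.25 RPKM after saline. Saline libraries 2, 3 and 5 lay below the cocaine group, and libraries 1 and 4 within it. The difference was 0.38 ± 0.13 (unadjusted p = 0.013, edgeR adjusted p = 0.39). Lrrtm4 gave 4.79, 6.67, 4.64, 4.39, 4.62 and 4.95 RPKM after cocaine against 5.26, 3.33, 3.77, 3.25 and 3.46 RPKM after saline. Saline library 1 lay above 5 of the 6 cocaine libraries and the other 4 saline libraries below all of them. Its difference was 0.38 ± 0.15 (unadjusted p = 0.022, adjusted p = 0.40).

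The other members were closer between the groups. Lrrtm3 gave 9.10, 8.71, 9.28, 8.14, 8.86 and 9.33 RPKM against 9.11, 8.12, 8.18, 7.07 and 6.54 RPKM (0.18 ± 0.09), and Nlgn3 12.1, 13.1, 12.5, 11.3, 13.5 and 13.7 RPKM against 12.4, 11.4, 11.9, 10.8 and 10.2 RPKM (0.15 ± 0.07). Saline library 5 was the lowest for both and for 5 of the 9 members in all. Lrrtm2 was at 0.26 ± 0.17, Nlgn1 at 0.23 ± 0.12, Nrxn2 at 0.14 ± 0.07, Nlgn2 at 0.11 ± 0.09 and Nrxn3 at 0.02 ± 0.21, whose 95% interval ran from -0.43 to 0.47. The estimate of Nrxn3 ran from -0.07 to 0.20 on leaving out 1 library. Over the 9 members the intervals in the VTA at 28 days ran from -0.43 to 0.70.

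Glial and cortical markers moved with these groups as well. The 6 cortical excitatory genes summed to 4.38, 5.86 and 19.2 RPKM after cocaine and to 4.70, 28.1, 22.6, 84.2 and 51.0 RPKM after saline. Emx1 was near 0 in the cocaine group. Of the 8 dopamine neuron genes 7 were higher after cocaine (median 0.18), with sums of 636 to 1883 RPKM against 449 to 2036 RPKM. Only 1 of the 5 astrocyte genes (median -0.04) and 1 of the 4 choroid plexus genes (median -1.17) was higher. No gene of these lists passed. All 5 oligodendrocyte genes (such as Mbp and Mog) were lower after cocaine (median -0.45, sums of 2320 to 4233 RPKM against 3390 to 6586 RPKM), as were the 4 endothelial genes (median -0.46, 60.1 to 92.1 RPKM against 66.9 to 154 RPKM) and the 5 microglial genes (median -0.31, 71.1 to 116 RPKM against 103 to 195 RPKM), none of which passed. With the mean log2 level of the 6 cortical genes as a covariate the estimates were 0.39 for Lrrtm1 and 0.04 for Lrrtm4. The sum of the cortical genes was mostly lower after cocaine, so in this fit they and the treatment cannot be fully told apart. The part of the dopamine neuron, glial, endothelial and choroid plexus genes was not tested.

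Whether the cocaine effect differed between regions at 28 days was tested in 1 fit over all 35 libraries. No member passed in any of the 3 pairs of regions, with 0.0339% of all genes called for NAc minus VTA, 0% for NAc minus PFC and 0.0339% for VTA minus PFC. At an unadjusted p under 0.05 there were 3, 0 and 4 members, against 8.34%, 4.56% and 11.6% of all genes at that level. DESeq2 called 0 members. The largest were Lrrtm1 and Lrrtm4 in VTA minus PFC, with 0.49 ± 0.15 and 0.45 ± 0.13 (adjusted p = 0.19 for both), or 0.44 and 0.47 without PFC saline library 4 (adjusted p = 0.26 and 0.22).

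Levels differed between the 2 time points for some of the members. The libraries of the 2 times did not overlap for 6 of the 9 members in the NAc, 2 in the VTA and 6 in the PFC after saline, and for 4, 3 and 6 after cocaine. The share of all genes without overlap between the times was not counted, so these counts do not set the members apart. Over the saline libraries the mean level of Nrxn2 at 28 days was 2.19 times that at 1 day in the NAc (38.5 ± 5.66 against 17.6 ± 3.38 RPKM), 2.16 times in the VTA and 2.67 times in the PFC, and the libraries of the 2 times did not overlap in any region. Nlgn2 was 1.44, 1.33 and 1.44 times as high, again without overlap, and Lrrtm1 2.05, 1.49 and 1.98 times. Lower at 28 days were Lrrtm2 (0.679, 0.621 and 0.694 times), Lrrtm4 (0.648, 0.705 and 0.732), Nlgn1 (0.774, 0.649 and 0.759) and Nrxn3 (0.799, 0.638 and 0.861). Nlgn3 and Lrrtm3 stayed between 0.832 and 1.09 times. After cocaine the ratios for NAc, VTA and PFC were 2.39, 2.31 and 2.82 for Nrxn2, 1.49, 1.36 and 1.54 for Nlgn2 and 1.99, 1.59 and 1.76 for Lrrtm1. In the VTA after cocaine Lrrtm2 (0.887), Lrrtm4 (0.963), Nlgn1 (0.958) and Nrxn3 (0.829) were closer to 1 than after saline. Their VTA libraries overlapped between the times after saline as well as after cocaine. The tables of the 2 times were made separately, so abstinence and the making of the libraries cannot be told apart, and no test was run.

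The ratios were set beside base composition. G and C bases made up 60.5% of the annotated exons of Nlgn2, 58.6% of Nrxn2 and 54.0% of Lrrtm1, the members with higher levels at 28 days. They made up 38.5% in Lrrtm2, 39.7% in Lrrtm4 and 41.1% in Nlgn1, and 44.3% to 49.8% in the other 3. Over the 9 genes Spearman's correlation of this share with the log2 ratio of 28 days over 1 day in saline libraries, averaged over the 3 regions, was 0.90, a description of genes that share libraries and tables. The order was not exact, as Nlgn2 had the highest share but a smaller ratio than Nrxn2 and Lrrtm1.

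**Figure D5:**
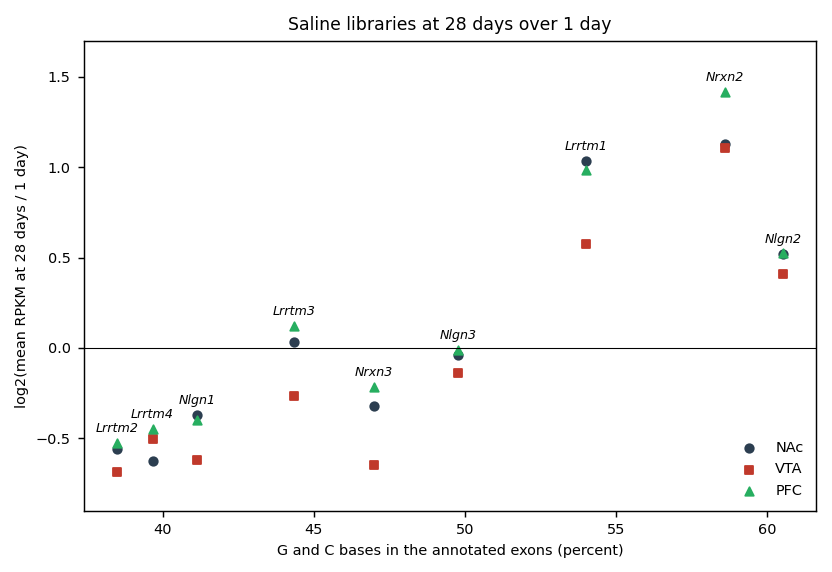
Log2 ratio of the mean RPKM at 28 days over 1 day in saline libraries (y axis) against the share of G and C bases in the annotated exons (x axis, percent) for the 9 members, in NAc (circles), VTA (squares) and PFC (triangles). The 3 members above 50% lay above 0 in each region and Lrrtm2, Lrrtm4 and Nlgn1 below 0.

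Other genes of the pathway were read from 7 lists of partners. None of them passed for cocaine in any of the 6 comparisons by edgeR or limma. At an unadjusted p under 0.05 there were 8 of 53 entries in the VTA at 1 day and 11 of 56 at 28 days, and between 0 and 6 in the other 4 comparisons. That share over all genes was 15.7% in the VTA at 1 day and 11.5% at 28 days. It lay between 3.78% and 6.76% in the other 4 comparisons. Between regions 62.5% (NAc against VTA), 40.7% (NAc against PFC) and 57.8% (VTA against PFC) of all genes passed. The counts by list here and below are to be read beside these shares. Of the 11 secreted neurexin partners tested, 10 were lower and 1 was higher in NAc than VTA. C1ql2, a secreted C1q-like ligand, was lower at -4.21 ± 0.60 (adjusted p = 8.3e-06), and Nxph2, a neurexophilin that binds alpha-neurexins, was higher by 3.19 ± 0.35 (adjusted p = 4.2e-07). C1ql3 was lower in NAc than PFC at -3.95 ± 0.37, in a list with 1 higher and 6 lower of 11, and Cbln4, a cerebellin, was higher by 0.69 ± 0.25 (adjusted p = 0.0338), a call lost on leaving out any of 6 libraries. In VTA against PFC 7 were higher and 3 lower, with C1ql2 at 3.52 ± 0.57 and Nxph2 at -3.62 ± 0.35.

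On the postsynaptic side, 5 of the 8 entries of neuroligin modulators and scaffolds were higher and 1 lower in NAc than VTA. Dlg4, which encodes the excitatory scaffold PSD-95, was higher in NAc than VTA by 1.72 ± 0.10 and lower in VTA than PFC at -1.59 ± 0.10. Mdga1, an inhibitor of the neuroligin 2 bond with neurexins, was lower in NAc than VTA at -0.91 ± 0.20 and higher in NAc than PFC by 1.60 ± 0.20 and in VTA than PFC by 2.50 ± 0.21. Of the membrane partners of neurexins 6 were higher and 2 lower of 10 in NAc against VTA, led by Lphn2 (a latrophilin, 1.18 ± 0.11) and Clstn2 (calsyntenin 2, -1.65 ± 0.17). In NAc against PFC 2 were higher and 4 lower, with Clstn2 at -1.31 ± 0.16, and in VTA against PFC 0 were higher and 5 lower, with Igsf21 at -1.20 ± 0.21.

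Among the neurexin splicing regulators, Khdrbs3 (SLM2) was lower in NAc than PFC at -1.69 ± 0.13 and in VTA than PFC at -2.13 ± 0.14, and Khdrbs2 (SLM1) was higher in NAc than VTA by 0.92 ± 0.16 and than PFC by 1.28 ± 0.16. The tables count whole genes, so neurexin splice forms were not analysed here. Of the 5 cytoplasmic partners, Apba1 (Mint1) was lower in NAc than VTA at -1.47 ± 0.12 and Lin7b higher by 1.03 ± 0.18. In NAc against PFC Apba1 was at -1.06 ± 0.12 and Lin7c at 0.33 ± 0.06, and in VTA against PFC Apba1 was at 0.41 ± 0.12 and Lin7b at -1.14 ± 0.18. The 15 LAR phosphatases and ligands, a second adhesion system of the synapse, split 6 higher and 3 lower in NAc against VTA and 2 higher and 7 lower in VTA against PFC, with Lrrc4c at 1.31 ± 0.08 and Ntng1 at -1.49 ± 0.16 in the first and Lrrc4 at -1.54 ± 0.06 and Slitrk6 at 3.18 ± 0.64 in the second. In NAc against PFC, with 1 higher and 5 lower, Slitrk6 was at 2.70 ± 0.62 and Slitrk1 at -1.84 ± 0.17. Without PFC library 4 the Slitrk6 differences were 3.91 for NAc and 4.37 for VTA against PFC.

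The host genes of the LRRTMs had patterns of their own. Ctnna2 was higher in NAc than VTA by 0.35 ± 0.07 and lower in VTA than PFC at -0.63 ± 0.07, the directions of Lrrtm1 inside it, but lower in NAc than PFC at -0.28 ± 0.07, the opposite of Lrrtm1. Ctnna3 was lower in NAc than VTA at -1.16 ± 0.32 and higher in VTA than PFC by 1.55 ± 0.32, both opposite to Lrrtm3. Ctnna1 was lower in NAc than VTA at -0.74 ± 0.09 (adjusted p = 8.3e-07) and higher in VTA than PFC by 0.92 ± 0.09 (adjusted p = 6.4e-08), opposite to Lrrtm2 inside it in VTA against PFC. In NAc against PFC Ctnna1 (0.18 ± 0.08) and Ctnna3 (0.39 ± 0.31) did not pass. None of the 3 host genes passed for cocaine.

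One partner passed in a test of the difference between regions, and was named after its values were seen. Grid1, the delta-type glutamate receptor GluD1 that cerebellins link to neurexins, gave 11.8 to 15.2 RPKM (12.8 ± 1.24, SD, n = 6) in the VTA after cocaine and 8.94 to 10.6 RPKM (9.79 ± 0.615, n = 5) after saline at 28 days, without overlap. In the PFC it gave 13.8 ± 0.738 RPKM after cocaine and 14.99 ± 1.32 RPKM after saline. The cocaine effect in VTA minus PFC was 0.50 ± 0.09 (edgeR adjusted p = 0.039), and 0.50 with an adjusted p of 0.0625 without PFC saline library 4. Within the VTA alone the effect was 0.38 ± 0.07 (edgeR adjusted p = 0.39, DESeq2 adjusted p = 0.0155), beside the marker shifts of those libraries given above.

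Across the 35 libraries at 28 days, the profiles of Lrrtm1, Lrrtm3 and Lrrtm4 resembled each other, with Pearson's r of log2 CPM (library-scaled counts) at 0.94 for each of their pairs. Lrrtm2 had r = 0.28, 0.09 and 0.20 with them. Among 17681 genes the profile most like Lrrtm3 was Ncdn (r = 0.99), followed by Sh2d5 (0.99), and those most like Lrrtm1 were Rbfox1 and Dbn1 (0.98 each). Those most like Lrrtm4 were Dlx5 and Gabrg3 (0.97 each), and those most like Lrrtm2 were Agtpbp1 and Syt1 (0.93 each). Nlgn1 was closest to Sgip1 and Smarcc1 (0.94 each), Nlgn2 to Sema6b (0.95) and Gm88 (0.94), and Nlgn3 to Edc3 (0.92) and Gria1 (0.91). Nrxn2 was closest to Lrfn1 (0.96) and Fam155a (0.95), and Nrxn3 to Sgcb (0.78) and Erc2 (0.72), the lowest of the 9. These libraries share 3 regions, which set most of the variation, so the values describe regional pattern.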

How the data were processed

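Sequencing libraries were grouped by the labels of treatment, region and time. The members and all gene lists were chosen with earlier results of these data known. The authors aligned reads with STAR 2.4.1d to mm9 with Ensembl genes, per the labels and the study's methods, and the strand of counting is not stated. They deposited raw read counts per gene for the NAc (1 and 28 days), VTA (28 days) and PFC (28 days). For the VTA and PFC at 1 day they deposited RPKM, which is divided by gene length and library reads. Columns of the 28-day tables give the group but not the labelled sample, so their numbers only name libraries. The tables also hold the authors' own fold changes and p-values, which were not used, and 30 further columns belong to no sample analysed here.

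Counts were tested with edgeR 4.0.16 (TMM, filterByExpr with a minimum count of 10 and total of 15, quasi-likelihood test) in R 4.3.3, and RPKM values with limma 3.58.1 after adding 0.1 and taking log2, which understates changes of low genes. Genes whose mean was under 0.5 RPKM were left out there. P-values are two-sided and Benjamini-Hochberg adjusted over all genes tested, and called under 0.05. Whole reads were recovered from RPKM for 23806 of 23806 genes in the VTA and 23342 of 23353 in the PFC (values within 0.05 of a whole number), and RPKM of count tables uses the gene lengths these imply. DESeq2 1.42.0 and the other alternatives are in the closing section. Scripts were tested on simulated data. Text names all 9 members, called partners with the largest difference in each direction per list and region pair, the 3 host genes, and the 2 genes most correlated with each member, and adds Grid1 after its values were seen. A partner that this rule names is not reported here. No 2 libraries of a group were identical (175 pairs). Exon bases and overlaps come from the mm9 annotation, promoters from RefSeq (GRCm38.p6).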

Additional observations from a re-analysis of the deposited data

Results flagged for a closer look

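Among the 108 groups of libraries formed by the 9 members, 11 held a library far from the others of its group by Dixon's ratio at the 95% level, where about 5.4 are expected by chance (1 in 20). In the NAc at 1 day these were Nlgn2 in cocaine library 5 (39.5 RPKM, the next at 34.4) and Nrxn2 in saline library 4 (10.9 RPKM, the next at 17.7). In the NAc at 28 days they were Lrrtm4 in cocaine library 6 (8.37 RPKM, the next at 9.16) and Nrxn2 in saline library 1 (49.7 RPKM, the next at 38.0). The VTA at 1 day had Lrrtm1 in cocaine library 6 (3.70 RPKM, the next at 5.80). The VTA at 28 days had Lrrtm2 in cocaine library 5 (12.7 RPKM), Lrrtm4 in cocaine library 2 (6.67 RPKM) and Lrrtm4 in saline library 1 (5.26 RPKM). The PFC had Nrxn2 in cocaine library 5 at 1 day (14.2 RPKM), and at 28 days Nlgn3 in cocaine library 3 (13.7 RPKM) and Lrrtm3 in saline library 4 (19.6 RPKM, the next at 14.0), the library that also carried medium spiny neuron genes.

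The cocaine effect on Grid1 at 28 days differed between VTA and PFC by 0.50 on the log2 scale in the edgeR test of that difference (adjusted p = 0.039). The call was lost without PFC saline library 4, with the same 0.50 at an adjusted p of 0.0625.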

How the results depend on the processing

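Of 175 counts of called members under an alternative, 172 kept within 1.5 times of the count reported, and the 3 that moved were those at a log2 difference of at least 1, with 3 members in NAc against VTA, 0 in NAc against PFC and 2 in VTA against PFC. Of 1547 single member values 97 had another sign than the value reported, 75 of them on leaving out 1 library. Of the 97, 88 were called in neither fit and moved by at most 1 SE, and the other 9 follow. With the mean log2 level of the cortical genes as a covariate, Nlgn3 was at 0.039, Lrrtm3 at 0.072 and Lrrtm4 at 0.17 in the VTA at 1 day. With that covariate Nlgn2 was at -0.072 in the VTA at 28 days. In the 1-day saline libraries Nrxn3 was at -0.23 in NAc against VTA and at 0.38 in VTA against PFC, and Nrxn2 at 0.10 in VTA against PFC, and in the 28-day cocaine libraries Lrrtm2 was at -0.053 in NAc against VTA. Leaving out 1 library moved Lrrtm3 in the PFC at 28 days between -0.15 and 0.00 (0.0037 without saline library 4). Among partners the covariate turned Ctnna2 to 0.054 and Grid1 to 0.19 in the VTA at 1 day, and Ctnna1 to 0.035 and Ctnna3 to 0.50 at 28 days. The cause was not tested.

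Counts of all called genes moved more. On leaving out 1 library they ran from 0 to 65 in the VTA at 1 day, from 0 to 2 in the NAc at each time, from 1 to 2 in the PFC at 1 day and at 0 in the VTA and PFC at 28 days. DESeq2 called 20 genes in the NAc at 1 day (edgeR 2), 16 at 28 days (0), 74 in the VTA at 28 days (0), 2 in the PFC at 28 days (0), 12 for time in the NAc (3), 53 for NAc minus VTA (6) and 94 for VTA minus PFC (6), with 0 for NAc minus PFC (0). In the VTA at 1 day edgeR on recovered reads called 55 genes and the covariate fit 0 (limma 10). The interaction without PFC saline library 4 and the partner alternatives were chosen after seeing the data. Without that library 9 genes passed for NAc minus VTA and 2 for VTA minus PFC.

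The values did not settle whether replicate numbers pair the 1-day libraries. Same-numbered deviations correlated over 0.1 in 3 of 6 pairs in the NAc, 4 in the VTA and 0 in the PFC. These correlations ran from -0.47 to 0.60, from -0.27 to 0.45 and from -0.18 to 0.08. In the same order 2, 2 and 0 libraries correlated best with their own number. With the replicate block 0 members were called in each of the 3 tables and 60 genes in all in the VTA (limma 10), with Nrxn3 at an adjusted p of 0.0832. The 28-day columns carry no labelled number, so no block could be made there. With 5 or 6 libraries a group, changes inside the intervals given could not be seen.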
